A study of Caenorhabditis elegans with 2 samples.

Results

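The genes for proteins of the large (60S) subunit of the cytosolic ribosome were examined for binding by the homeobox protein CEH-82 in the nematode Caenorhabditis elegans. Members were all protein-coding genes of the Ensembl annotation of assembly WBcel235 (the same assembly as ce11) whose name is rpl- with a number, which gave 47 genes, plus rla-0, rla-1 and rla-2. These 50 genes were a small part of the 19973 protein-coding genes on the nuclear chromosomes. The data were peak lists from chromatin immunoprecipitation and sequencing (ChIP-seq) of eGFP-tagged CEH-82 in whole larvae of stage L1, which follows hatching, with both sexes pooled. The strain, OP212, has the genotype unc-119(ed3) III; ddEx58, and the name ddEx58 has the form of an extrachromosomal array, so the tagged protein came from a transgene. The 1 group had 2 biological replicates, and no list from a control immunoprecipitation was analysed here. The labels give the age as unknown and no promoter or expression pattern for the transgene, and the cells in which a peak arose cannot be told apart in whole animals.

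The 60S subunit holds the peptidyl transferase centre, which joins amino acids, and the tunnel through which the new chain leaves. Most of its proteins brace the ribosomal RNA, while the stalk proteins recruit the translation factors that use GTP. A ribosome needs its proteins in matched amounts, and these genes are among the most highly and broadly expressed in eukaryotes. In C. elegans many messenger RNAs, those for ribosomal proteins included, receive a trans-spliced leader, and neighbouring genes can be transcribed together as an operon. An annotated 5' end is therefore often a splice acceptor and not the site where transcription starts. The letters CAG stood directly before a 5' end of 42 of the 50 members and of 29.7% of all protein-coding genes, and TTTCAG before that of 27 members and 16.8% of all genes. Distances below are measured from these annotated ends.

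CEH-82 peaks lay at 44 of the 50 large-subunit genes. A gene was called bound when the summit of a peak in the authors' optimal list, made with a threshold on the irreproducible discovery rate (IDR), lay in a window around a 5' end of the gene. The window ran from 1000 bp upstream to 200 bp downstream, and the 5' ends of all transcripts counted. By this rule 88% of members were called, beside 16.0% of all protein-coding genes. In the strongest peaks of each replicate's own list, cut to the 3913 peaks of the optimal list, the count was 44 of 50 in replicate 1 and 44 of 50 in replicate 2. The same 44 genes were bound in both, where 13.7% of all genes were. The optimal list is itself built from both replicates, so these counts are not independent of each other. Cytosolic small-subunit genes (rps- with a number) had 29 of 31 bound, also 29 in each replicate, and genes for the large subunit of the mitochondrial ribosome (mrpl-) had 23 of 41, with 21.0 ± 2.83 genes (SD, n = 2) in the replicates. The difference between these groups was not tested.

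Signal at the bound members was high within the optimal list and covered a wide range. The signal of a peak is the authors' own value per peak and is used here only to order peaks within 1 list. The strongest peaks of the 44 members had signals from 42.0 to 586, with a median of 151 and quartiles of 110.2 and 197. Over all 3201 bound genes the median was 63.8 and the quartiles were 42.5 and 103. The median rank among 3913 peaks was 314 for members and 1625 for all bound genes, where rank 1 is the strongest. For small-subunit genes the median signal was 169 and for mitochondrial large-subunit genes 81.8. When the list was cut to its 1956 strongest peaks, 40 members kept a summit, beside 9.41% of all genes. Those that lost it were rla-0, rla-2, rpl-11.1 and rpl-41.1. All 44 peaks carried the highest −log10 q-value that the list holds, 3.82, as did 83.6% of the 3913 peaks, so this value does not separate them.

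**Figure D1:**
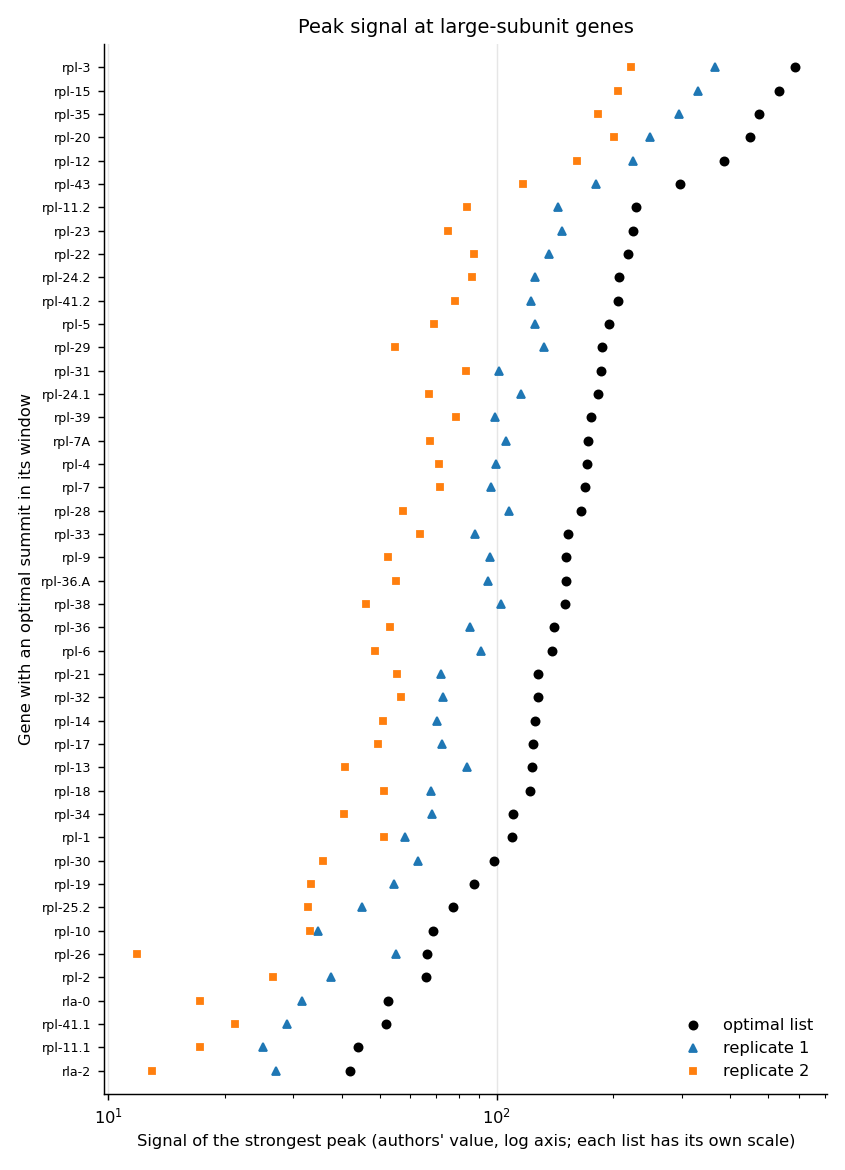
Signal of the strongest peak at each of the 44 bound large-subunit genes in the optimal list (circles), replicate 1 (triangles) and replicate 2 (squares), on a log axis; each list has its own scale, so only the order within a list can be compared. The top 5 genes, rpl-3 to rpl-12, stand apart at 386 and above in the optimal list, and rpl-26 is far lower in replicate 2 than its neighbours in the order.

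Genes for proteins around the catalytic centre and the tunnel included the strongest of all. rpl-3, whose protein has an extension that reaches towards the peptidyl transferase centre, ranked 2 in the optimal list, with a signal of 586. Its signal was 366 in replicate 1, rank 1 there, and 222 in replicate 2, rank 3. The other 3 genes of this group were all bound but ranked lower. rpl-4, for a protein that lines the tunnel, had 172 in the optimal list, 99.5 in replicate 1 and 71.1 in replicate 2. rpl-10, for a protein that joins the subunit late in its assembly, had 68.5, 34.7 and 33.1 in the same order, and rpl-2 had 65.8, 37.5 and 26.6. The group thus ran from 65.8 to 586.

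Around the tunnel exit, where chaperones and targeting factors dock, 8 of 9 genes were bound. rpl-35, whose protein sits beside the exit, had a signal of 475 in the optimal list, 296 in replicate 1 and 182 in replicate 2, and ranked 6, 8 and 6. rpl-22 had 218, 136 and 87.3, rpl-31 had 186, 101 and 83.5, and rpl-39 had 176, 99.2 and 78.6 in those 3 lists. rpl-17 had 124, 72.6 and 49.4, and rpl-19 had 87.4, 54.4 and 33.3. The lowest were rpl-25.2, with 77.3, 45.1 and 32.8, and rpl-26, with 66.2, 55.2 and 11.9. The remaining gene, rpl-25.1, had no summit in its window.

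The stalk, which carries the translation factors to the ribosome, was uneven. rpl-12, for a protein of the stalk base, ranked 17 with a signal of 386, and had 225 in replicate 1 and 161 in replicate 2. The genes of the acidic and anchoring stalk proteins were near the other end of the order. rla-0, for the protein that anchors the stalk, had 52.4 in the optimal list, 31.6 in replicate 1 and 17.2 in replicate 2. rla-2 had the lowest signal of any bound member, 42.0, with 27.1 and 13.0 in the replicates, and rla-1 had no optimal summit. Beside rla-2, the lowest bound members were rpl-11.1 (44.0) and rpl-41.1 (52.1). Ranks of these 3 were 2656, 2545 and 2132 of 3913, so none lay at the very end of the optimal list, which stops at a signal of 27.6.

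The proteins of rpl-5 and rpl-11 bind 5S ribosomal RNA as 1 particle before they enter the subunit. rpl-5 had a signal of 195 in the optimal list, 126 in replicate 1 and 69.0 in replicate 2. rpl-11 has a pair of gene copies, and their signals differed in every list. rpl-11.2 on the X chromosome had 229, 144 and 83.9, while rpl-11.1 on chromosome V had 44.0, 25.06 and 17.3. rpl-41.2 and rpl-41.1, neighbours on chromosome I, had 205 and 52.1 in the optimal list, 122 and 28.8 in replicate 1, and 78.3 and 21.2 in replicate 2. For rpl-25.2 and rpl-25.1 the optimal list held a peak of 77.3 and none. rpl-24.1, for a protein that joins the subunit late, and rpl-24.2, whose human and yeast relatives are assembly factors, were close, with 183 and 207 in the optimal list, 115.5 and 126 in replicate 1 and 66.9 and 86.4 in replicate 2. In the rpl-11 and rpl-41 pairs 1 copy had the higher signal in all 3 lists by a wide margin, and in the rpl-24 pair the values were close. The peaks of rpl-11.1 and rpl-41.1 were each shared with another gene and cannot be assigned to 1 gene. That of rpl-41.1 lay at -584 bp from it and nearer, at -248 bp, to M04F3.5. That of rpl-11.1 lay at -218 bp from it and at -357 bp from T22F3.2. rpl-7 with rpl-7A (169 and 172) and rpl-36 with rpl-36.A (140.4 and 151) share only a number and encode different proteins.

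Other members with high signals had no group assigned. rpl-15 ranked 3 with 534 in the optimal list, and 4 in both replicates with 330.3 and 206. rpl-20 ranked 10 with 450.3, and had 248 in replicate 1 and 200.2 in replicate 2. rpl-43, for a small zinc-finger protein of the subunit, had 297, 180.2 and 117. rpl-23, for a protein on the face that meets the small subunit, had 225, 148 and 75.1. Apart from rpl-41.1 and rpl-41.2, the remaining bound members with no group lay between 98.4 (rpl-30) and 187 (rpl-29). Among them rpl-28 had 165, rpl-33 had 153, rpl-9 and rpl-38 each had 151, and rpl-6 had 139. rpl-21, rpl-32, rpl-14, rpl-13, rpl-18, rpl-34 and rpl-1 fell from 128 to 109.6. All of these genes lay above the median of all bound genes, 63.8, and rpl-30 and rpl-1 lay below the lower quartile of the members.

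The order of the members was much alike in the replicates, with a few exceptions. Across the 44 genes, which are not independent replicates and whose lists share 1 further input file, the ranks in both top lists had a Spearman rho of 0.917, given as a description. The larger rank was 1.37 times the smaller in the median gene, and more than 2 times in 6 genes (rpl-3, rpl-20, rpl-23, rpl-26, rpl-29 and rpl-38). Near the top of a list a shift of a few places gives such a ratio, as at rpl-3 (ranks 1 and 3) and rpl-20 (13 and 5). The widest gap was at rpl-26, ranked 916 in replicate 1 and 3760 in replicate 2, where the list was cut at 3913. rpl-29 followed, ranked 110 and 399. The rank was nearer the top in replicate 1 for 22 genes and in replicate 2 for 21. The summit of the optimal list and that of a replicate lay a median of 2 bp apart in replicate 1 and 3.5 bp apart in replicate 2, and at most 53 bp apart in either, at rla-0.

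**Figure D2:**
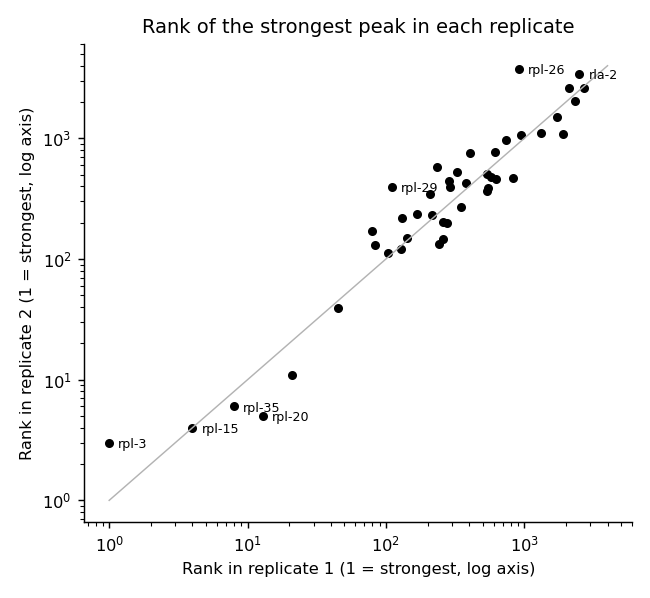
Rank of the strongest peak of each of the 44 bound genes in replicate 1 (x) and replicate 2 (y), both on log axes with 1 the strongest; the grey line marks equal ranks. Most genes lie close to the line (rho 0.917), and rpl-26 (916 and 3760) lies farthest from it.

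Summits sat in a narrow band well upstream of the annotated 5' ends. Each of the 44 genes had exactly 1 optimal summit in its windows, and all 44 lay upstream of the nearest 5' end, shares close to the 95.6% of all bound genes with 1 summit and the 95.0% with an upstream one. The median position was -293.5 bp, with quartiles of -369 and -250 bp, which lie 119.5 bp apart. In the replicates' own lists the median was -293.0 and -291.5 bp. For all 3201 bound genes the median was -223 bp with quartiles of -405 and -119 bp, which lie 286 bp apart. Of the members, 39 lay between 450 and 150 bp upstream, where 44.7% of all bound genes did, and these limits were set after the positions were seen. Small-subunit genes had a median of -299 bp with quartiles 106 bp apart, and mitochondrial large-subunit genes a median of -174 bp with quartiles 119.5 bp apart.

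The 5 members outside that band were rpl-43 at -743 bp, rpl-41.1 at -584, rpl-35 at -452, rpl-7A at -84 and rpl-12 at -30 bp. Of these 5, rpl-35 had the letters CAG directly before an annotated 5' end and the other 4 did not. With windows of 500 bp upstream 42 members were bound, rpl-41.1 and rpl-43 being lost, beside 13.1% of all genes. With 2000 bp the count was 46, rla-1 and rpl-16 being gained, beside 20.3%. Their summits, at -1327 and -1771 bp, are those in the windows of their upstream neighbours Y37E3.8 and lias-1. The summit lay outside every protein-coding gene at 41 of the 44 genes. The exceptions were rpl-10, whose summit fell 2 bp inside ints-11, rpl-24.2, which begins within C03D6.1, and rpl-19, whose summit fell between its own alternative 5' ends. Counted from the outermost 5' end alone, rpl-19 was not bound.

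**Figure D3:**
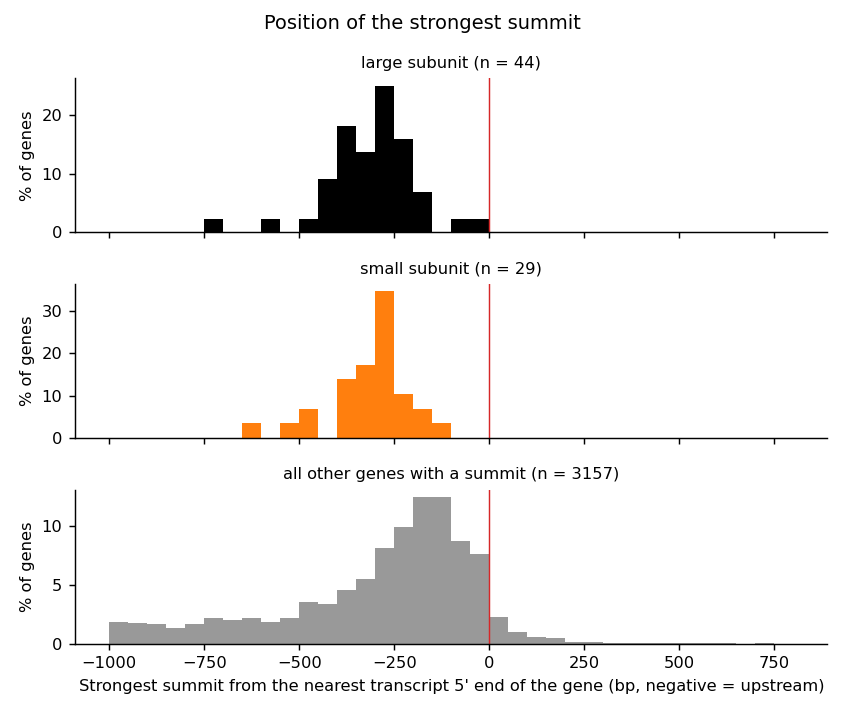
Position of the strongest summit relative to the nearest transcript 5' end, in bins of 50 bp, as a percentage of the bound genes of each set; the red line is the 5' end and negative values are upstream. The 44 large-subunit and 29 small-subunit genes peak between 250 and 300 bp upstream, while the 3157 other bound genes peak closer to the 5' end and spread more widely.

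Many of these peaks stood between a pair of genes that point away from each other. The nearest upstream protein-coding gene lay on the opposite strand at 30 of the 44 bound members (68.2%), close to the 66.3% of all bound genes, and at 45.4% of all protein-coding genes. At rpl-35, 1 of the 30, that neighbour was 11497 bp away and the peak was not shared. The strongest peak of 31 members (70.5%) also lay in the window of another protein-coding gene, beside 51.1% of all bound genes. Small-subunit genes had a like share, 20 of 29 bound genes (69.0%), and mitochondrial large-subunit genes had 13 of 23 (56.5%). A shared peak cannot be assigned to 1 gene from these lists. rpl-24.1 shared its peak with rps-10, rpl-36 with rps-14 and ndab-2, and rpl-39 with rps-30 and C26F1.3, so that 3 peaks lay upstream of a large-subunit and a small-subunit gene at once. rpl-28 shared its peak with mrpl-49, a gene of the mitochondrial ribosome, rpl-30 with the poly(A)-binding protein gene pab-1, rpl-12 with lin-54, and rpl-7 with the recycling endosome GTPase gene rab-11.1. The 13 members with a peak of their own included rpl-3, rpl-35 and rpl-11.2.

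When each summit was given only to the gene with the nearest 5' end, 26 members remained bound, beside 11.8% of all genes. The 18 members that lost their peak in this way included rpl-20, whose summit lies at -288 bp from it and at -174 bp from Y17G9B.5, rpl-22 (-242 bp, and -195 bp from ify-1), and rpl-43 (-743 bp, and -178 bp from Y48B6A.1). Distance to an annotated 5' end does not say which gene a peak acts on.

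The 6 members without an optimal summit were rla-1, rpl-16, rpl-25.1, rpl-27, rpl-37 and rpl-42. In the whole pooled list, which the authors label as peaks and background, rla-1, rpl-16, rpl-25.1 and rpl-42 had a summit in their window with signals from 10.03 to 13.4. These lie far below the end of the optimal list, and rpl-27 and rpl-37 had none in any list. With the pooled list 48 members and 33.7% of all genes would be called. Of the 6, rla-1, rpl-16, rpl-25.1 and rpl-27 had a gene on the same strand ending 105, 105, 97 and 119 bp upstream of their own start. No bound member had so short a gap: theirs ran from 253 to 11497 bp, with a median of 604 bp. The gap is measured to the nearest gene that lies wholly upstream, so overlapping genes are passed over. Bound rpl-24.2, which begins within C03D6.1, is thus given a gap of 764 bp to cel-1. Among the 1595 protein-coding genes with a same-strand neighbour within 150 bp upstream, 8.15% were bound.

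At these 4 genes the upstream neighbour had a peak in its own window. Y37E3.8, upstream of rla-1, had a peak of signal 114.6 at -295 bp from its 5' end, which ranked 688 and 538 in the replicates and also lay in the window of phb-1. lias-1, a lipoate synthase gene upstream of rpl-16, had a peak of 185 at -274 bp, with ranks of 150 and 261. glit-1, upstream of rpl-25.1, had one of 190.5 at -220 bp, with ranks of 146 and 213, and shared it with dnj-14. C53H9.2, upstream of rpl-27, had one of 92.7 at -201 bp, with ranks of 695 and 1526, and shared it with C53H9.3. The summit nearest to rpl-27 was another, 731 bp downstream of its 5' end, with a signal of 391 and rank 16, in the windows of C53H9.4 and egl-30. Of the 1465 unbound genes with such a close neighbour, 34.3% had a bound neighbour. A distance of about this size is typical of genes in operons in C. elegans, but the annotation used here lists no operons, and whether these pairs are transcribed together was not tested. rpl-37 and rpl-42 had no such neighbour: rpl-37 begins inside pitp-1, and the nearest gene upstream of rpl-42, unc-53, is 3256 bp away on the other strand.

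**Figure D4:**
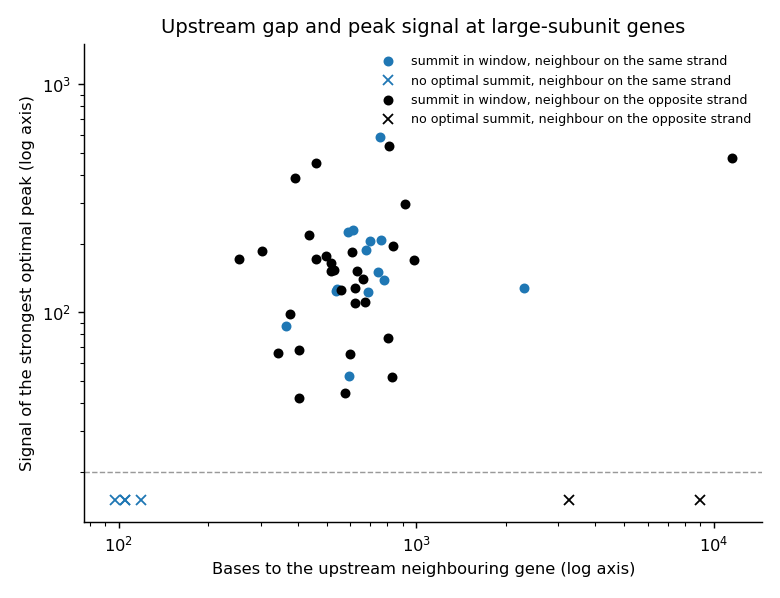
Bases between each large-subunit gene and the nearest protein-coding gene wholly upstream (x, log axis) against the signal of its strongest optimal peak (y, log axis). Overlapping genes are passed over, and colour gives the strand of that neighbour. Crosses below the dashed line are the 6 genes without an optimal summit and have no signal. The crosses at gaps of 97 to 119 bp are rpl-25.1, rla-1, rpl-16 (the last 2 overlap at 105 bp) and rpl-27, to the left of every bound gene.

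Members were spread over all 6 nuclear chromosomes. Chromosome I held 17 members with 15 bound, II held 9 with 8 bound, III held 9 with 7 bound, IV held 8 and V held 5, all bound, and X held 2 with 1 bound. The percentage of all protein-coding genes bound ran from 10.1% on V to 24.5% on III. The strongest bound member of chromosome I, rpl-24.2 with a signal of 207, lay below the strongest of II, III and IV and of X (rpl-11.2), and above that of V (rpl-39).

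The DNA at these summits shared short words that were less frequent at other promoter peaks. All words of 8 bases within 100 bp of the 44 summits were counted on both strands (5681 distinct words, a word and its reverse complement counted as 1). The 22 words present at 10 or more of the 44 peaks (of 201 bp each) were ordered by their share there over their share at the 2435 other optimal peaks in a protein-coding window, those of small-subunit genes included. The 4 highest that had no 5 letters in a row in common were kept. Because they were picked on these peaks, their shares at the members are a description and no test was made. The first word, GGCCTAAA, was found at 13 of the 44 peaks (29.5%) and at 0.986% of the other promoter peaks. The second, AACGAGTG, the third, ACCGTAGT, and the fourth, GGCGAGAC, were each found at 10 of the 44 (22.7%), beside 1.56%, 1.68% and 2.14% of the others. At the 200 strongest of the other promoter peaks the shares were higher, with 2.5% for the first word and 4.0%, 5.0% and 7.5% for the rest in order. At least 1 of the 4 words was at 27 of the 44 peaks, and at 5.75% of the other promoter peaks. In 201 bp centred at -294 bp from the outermost 5' end of every protein-coding gene, the shares were 0.761%, 0.466%, 0.716% and 0.836%.

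The 5 sequences below are those of rpl-15 and rpl-35, which rank among the strongest members, of rpl-6, which holds 3 words, and of the rpl-11 copies, which differ in signal. Each is the 201 bases centred on the summit, 5' to 3' on the gene's strand, from the RefSeq genome of assembly WBcel235, with any of the 4 words in either orientation in capitals.
rpl-15 (chrIV:654829-655029, minus strand): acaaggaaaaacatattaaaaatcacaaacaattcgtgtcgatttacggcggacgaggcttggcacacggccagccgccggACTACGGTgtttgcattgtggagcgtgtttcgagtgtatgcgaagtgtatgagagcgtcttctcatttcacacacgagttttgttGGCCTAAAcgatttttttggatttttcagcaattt
rpl-35 (chrIII:7854582-7854782, plus strand): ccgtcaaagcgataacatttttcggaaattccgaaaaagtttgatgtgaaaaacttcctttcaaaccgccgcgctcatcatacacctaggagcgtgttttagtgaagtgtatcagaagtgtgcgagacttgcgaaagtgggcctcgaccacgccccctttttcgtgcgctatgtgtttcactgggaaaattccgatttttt
rpl-6 (chrIII:7208003-7208203, plus strand): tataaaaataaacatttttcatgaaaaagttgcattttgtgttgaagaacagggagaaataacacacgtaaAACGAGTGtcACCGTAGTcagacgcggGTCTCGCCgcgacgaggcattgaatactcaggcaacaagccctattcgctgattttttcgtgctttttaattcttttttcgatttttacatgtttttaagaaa
rpl-11.2 (chrX:2242898-2243098, minus strand): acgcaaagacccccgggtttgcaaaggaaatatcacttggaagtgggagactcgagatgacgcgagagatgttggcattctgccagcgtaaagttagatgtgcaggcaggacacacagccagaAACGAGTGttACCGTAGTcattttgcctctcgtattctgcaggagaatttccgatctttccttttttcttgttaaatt
rpl-11.1 (chrV:3586182-3586382, minus strand): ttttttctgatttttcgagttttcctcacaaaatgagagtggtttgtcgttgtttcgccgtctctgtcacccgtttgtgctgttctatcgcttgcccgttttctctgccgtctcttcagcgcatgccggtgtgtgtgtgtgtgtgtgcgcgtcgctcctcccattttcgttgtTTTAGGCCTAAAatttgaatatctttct
In these sequences the summit is the base at position 101.

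Most matches to the first word lay on one side of the summit. Its 15 matches at 13 genes (rpl-1, rpl-2, rpl-3, rpl-7A, rpl-10, rpl-11.1, rpl-15, rpl-17, rpl-21, rpl-22, rpl-26, rpl-28 and rpl-43) lay on the gene side of the summit in 14 cases, a median of 65 bp from it, and read in the direction of the gene in 12. At rpl-11.1 it overlaps its own reverse complement, so that the same stretch counts as 1 match on each strand. Within 50 bp of the summit it was at only 6.82% of the peaks, and 300 to 400 bp away on either side it was at 1 of 44. The other words lay closer to the summit. The median position was 19 bp towards the gene for the second word, 7.5 bp for the third and 6 bp for the fourth, and every match to these 3 lay within 50 bp of the summit. The second word read in the direction of the gene in 9 of 10 cases, the third in 8 of 10 and the fourth in 4 of 10.

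**Figure D5:**
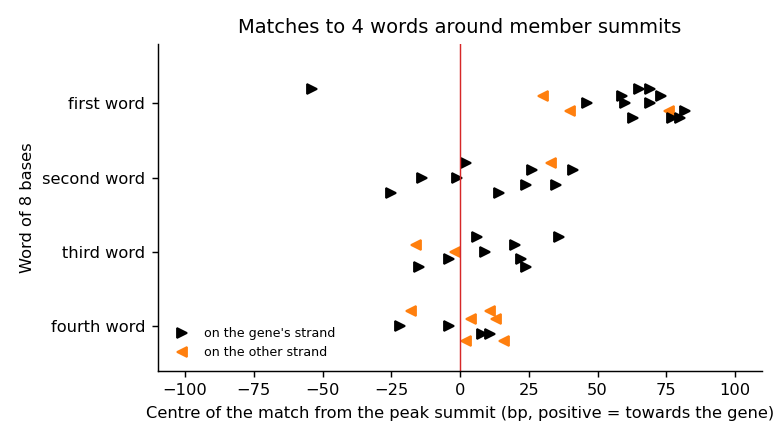
Position of each match to the 4 words relative to the summit, for the 44 member peaks, with positive values towards the gene; black triangles read along the gene's strand and orange ones along the other strand. The first word gathers a median of 65 bp towards the gene from the summit, and the other 3 words gather around the summit itself.

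The second and the third word also occurred together. In rpl-6, rpl-11.2, rpl-19, rpl-22 and rpl-34, AACGAGTG was followed, 2 bases on, by ACCGTAGT, as the printed sequences of rpl-6 and rpl-11.2 show. This arrangement stood at 5 of 44 member peaks and at 4 of the 2435 other promoter peaks (0.164%), and at none of the 26 small-subunit peaks. Those 4 lay in the windows of eel-1, fubl-3, ife-3, npp-3 and top-2. The arrangement joins words picked on these same member peaks, so its shares are a description and no test was made. rpl-35, with a signal of 475, held none of the 4 words, and neither did rpl-20 or rpl-12, the next in the order.

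The words were also counted at other ribosomal protein genes. At the 26 peaks of small-subunit genes that were not shared with a member, the first word was found at 7, the second at 4, the third at 3 and the fourth at 5, and at least 1 of them at 15. At 22 peaks of mitochondrial large-subunit genes the counts were 0, 1, 1 and 0. Of the 4 peaks at the upstream neighbours described above, that of Y37E3.8 held the second and the fourth word, that of lias-1 the third and the fourth, that of C53H9.2 the first and the fourth, and that of glit-1 none. The small-subunit, mitochondrial and neighbour peaks are among the 2435 against which the words were ordered. None of the windows of the 6 members without a summit, 1000 bp upstream to 200 bp downstream, held any of the 4 words. These windows are longer than the 201 bp used for the peaks, and the share over all genes was not counted for them. Each word was at less than 1% of the 201 bp upstream regions of all genes, so its absence from 6 windows does not set these members apart.

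The 4 shorter words listed for comparison differed in how often they occurred. GAGAGA was within 100 bp of 10 of the 44 member summits (22.7%, and 10 in each replicate's list), beside 40.7% of the other promoter peaks, 31.5% of the 200 strongest of those and 9 of the 26 small-subunit peaks. In the flanks of the member peaks it was at 7 of 44. TAATTA, the core that many homeodomain proteins bind, was at 0 of the 44, at 5.05% of the other promoter peaks and in the flanks of 5 of the 44, and no match says only that these letters are not in this window. The E-box CACGTG was at 1 of the 44 and at 4.85% of the others. TTTCAG, the letters of the splice acceptor, counted here on both strands, was at 14 of the 44 (31.8%), at 19.5% of the others and in the flanks of 19 of the 44. In the 201 bp upstream regions of all genes, the shares of these shorter words were 12.04%, 11.53%, 3.15% and 32.97% in order. The member share of GAGAGA was thus above that of the upstream regions, though below that of the other promoter peaks. For TTTCAG the member share was close to that of the upstream regions. TAATTA was also less frequent at the other promoter peaks than in these regions. The median GC content of the 201 bases was 42.0% at member peaks and 42.3% at other promoter peaks.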

How the data were processed

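ChIP-seq peak lists on ce11 were used. Per the deposited read-me files, 1 list was made for each replicate with the same further input file, 1 on both replicates together, and the optimal IDR-thresholded list from these 3. Aligner, caller and IDR threshold: not given in the sources used here. Depth is unknown, since the lists hold no read counts. The deposited lists give each peak's signal value, its q-value as −log10 and its summit, as the authors' caller wrote them. Lists on ce10 were not used.

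Genes and 5' ends came from Ensembl release 115 and bases from RefSeq, both on WBcel235. Peaks were ranked by signal, then q-value. Top lists held the 3913 strongest peaks of a replicate. The lists were compared with Python 3.11.15 by counts, medians and shares, with no test, since there is 1 group and genes are not replicates. Window calls, distances and word counts were tested on simulated data. Named in full were the 10 strongest members, rla-0, rla-1, rla-2, rpl-5, rpl-11.1, rpl-11.2, members that share a number, all without a summit and the 3 weakest, with the genes that share their peaks for a part of them. rpl-23 was taken out of the tunnel exit group first listed, since its protein lies elsewhere. Members, lists and words were chosen with earlier results of these data known. The words of 8 bases and the gap to the upstream neighbour were added after the data were seen. The sequences at some members are not reported here.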

Additional observations from a re-analysis of the deposited data

How the results depend on the processing

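The count of 44 bound members stayed between 40 and 48 under the 500 and 2000 bp windows, the 1956 strongest peaks, peak midpoints, any overlap of 1 bp, the outermost 5' end, the whole pooled list and either replicate alone, and fell to 26 with each summit assigned only to the closest gene start. Of the 44 bound members, 39 were in both replicates' lists when these were cut to 1956 peaks. With full lists the count was 44 and could not be lower, since all were already in both top lists. In the full lists rla-1, rpl-25.1 and rpl-42, not among the 44, also had a summit in both replicates. The shares over all genes were not counted for these settings. The median position was -294.5 bp with peak midpoints, and -293.0 and -291.5 bp in the lists of single replicates. The median signal stayed at 151 with windows of 500 and 2000 bp. Shared peaks numbered 25 of 42 with 500 bp and 38 of 46 with 2000 bp, against 31 of 44. A longer window takes in more genes everywhere, and the shares over all bound genes were not counted at 500 and 2000 bp. Within 50 bp of summits the share with GAGAGA was 9.09% and that with GGCCTAAA 6.82%. In single replicates the share with GGCCTAAA, an alternative added after the data were seen, ranged from 29.5% to 31.8%. A gap of 250 bp in place of 150 bp gave the same 4 unbound members. It could not do otherwise, since no member had a gap between 119 and 253 bp.

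No paired analysis was possible because there is 1 group. Both replicates share 1 further input file, so they can share its errors. Unknown depth means that a missing summit is not evidence of no binding.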
